A study of Mus musculus with 9 samples.

Results

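The Hedgehog pathway was read here through 9 listed genes, taken by name from the deposited table of gene counts: Ihh, Hhip, Ptch1, Smo, Sufu, Kif7, Gli1, Gli2 and Gli3. Of these, 8 had a row among the 15384 genes of the table, and Hhip, which encodes a decoy that binds Hedgehog ligands, was not analysed here. The genes were measured in MyC-CaP cells, a mouse prostate cancer cell line that grew from a tumor driven by a MYC transgene. The cells were kept without serum and calcium for 6 to 12 hours, then given recombinant mouse asporin (ASPN), a small leucine-rich proteoglycan secreted by fibroblasts, at 100 ng/mL. RNA-Seq was done at 0, 12 and 24 hours, with 3 libraries at each of the 3 times. The titles call the 0 hour libraries ASPN-treated as well, without saying whether any ASPN was added to them. No library of cells kept for 12 or 24 hours without ASPN was analysed. Exposure to ASPN and the hours in culture therefore cannot be told apart. The titles call the 3 libraries of a time biological replicates, and all came from 1 cell line, so the p-values measure the spread between cultures of these cells.

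In the absence of a Hedgehog ligand, the receptor PTCH1 holds the membrane protein SMO inactive, SUFU binds the GLI transcription factors, and GLI3 is cut into a repressor. A bound ligand releases SMO, which acts at the primary cilium with KIF7 so that GLI2 and GLI3 reach the nucleus as activators. Gli1 and Ptch1 are themselves GLI targets in most tissues, and their mRNAs are the usual readouts of pathway activity. In the prostate, epithelial cells are a source of ligand for the stroma during development.

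By 24 hours the mRNAs of Ptch1, Sufu, Kif7, Gli1 and Gli3 had fallen to between 41.6% and 55.8% of their time 0 level, while Smo, the most abundant member, stood at 74.5%. A gene was called where the edgeR test gave it an adjusted p-value no higher than 0.05 and its level changed by 1.5-fold or more, and none of the 6 members that could be tested was called at 12 hours, when 0.0964% of all tested genes were called lower and 1.5% higher, against 16.8% lower at 24 hours. The ligand Ihh and the factor Gli2 stayed at or below 3 counts in every library. The 5 falls kept their call in all 19 alternative fits at 24 hours against time 0. These include the adjusted p-value alone, which is the reported fit without the fold limit, so no call could be lost there. In RNA from whole cultures, less mRNA per cell and fewer cells that express the gene cannot be told apart.

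The promoters of the 4 most abundant members are printed because the best-measured changes described below are theirs, from Sufu at 48.3% of its time 0 level to Smo at 74.5%. Each window runs from 250 bases before to 50 bases after the start that RefSeq gives on GRCm38.p6, in the direction of the gene, with the CpG dinucleotides in capitals. They lie at chr13:63565686-63565985 on the minus strand (Ptch1), and on the plus strand at chr13:15463473-15463772 (Gli3), chr19:46396646-46396945 (Sufu) and chr6:29735247-29735546 (Smo).
Ptch1 promoter: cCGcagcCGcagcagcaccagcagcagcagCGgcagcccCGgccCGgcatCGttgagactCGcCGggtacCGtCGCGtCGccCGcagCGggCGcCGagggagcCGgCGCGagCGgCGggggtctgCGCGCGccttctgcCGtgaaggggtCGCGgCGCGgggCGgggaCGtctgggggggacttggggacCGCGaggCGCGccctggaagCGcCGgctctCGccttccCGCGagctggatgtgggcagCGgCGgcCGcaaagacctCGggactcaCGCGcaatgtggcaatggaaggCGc
Gli3 promoter: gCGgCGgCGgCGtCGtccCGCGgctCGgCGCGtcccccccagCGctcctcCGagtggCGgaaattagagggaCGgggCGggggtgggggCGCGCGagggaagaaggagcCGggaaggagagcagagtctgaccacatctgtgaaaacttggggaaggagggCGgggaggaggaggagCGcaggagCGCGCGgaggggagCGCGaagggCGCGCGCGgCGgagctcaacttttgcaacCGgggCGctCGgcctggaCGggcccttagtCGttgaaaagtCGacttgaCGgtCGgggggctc
Sufu promoter: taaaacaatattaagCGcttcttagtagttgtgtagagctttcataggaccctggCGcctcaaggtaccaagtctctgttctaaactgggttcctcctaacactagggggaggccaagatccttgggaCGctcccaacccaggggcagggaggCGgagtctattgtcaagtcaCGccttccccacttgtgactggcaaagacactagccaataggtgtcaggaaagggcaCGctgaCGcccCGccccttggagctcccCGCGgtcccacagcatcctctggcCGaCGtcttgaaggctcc
Smo promoter: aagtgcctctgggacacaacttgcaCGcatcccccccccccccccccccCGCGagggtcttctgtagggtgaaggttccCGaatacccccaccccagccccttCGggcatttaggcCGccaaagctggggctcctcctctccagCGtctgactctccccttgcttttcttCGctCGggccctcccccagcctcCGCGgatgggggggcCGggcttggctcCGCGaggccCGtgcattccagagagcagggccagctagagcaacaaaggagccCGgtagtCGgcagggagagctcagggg

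The Ptch1 window held 47 CpG and had a GC content of 76.3%, and the Gli3 window held 39 CpG at 71.0% GC. The Smo window held 17 CpG at 67.7% GC, and the Sufu window only 12 at 56.3%, against a median of 7 CpG and 52.7% GC over 32851 windows of the same length. Sufu and Ptch1, whose mRNAs changed by nearly the same factor, thus had the fewest and the most CpG of the 4. The GLI consensus GACCACCCA was searched on both strands (the other strand reads TGGGTGGTC). It was present in 83 of all windows (0.253%), and in 2214 (6.74%) with up to 1 mismatch. None of the 8 members with a window, Hhip among them, held it in either form, which says only that these letters are not in these windows. The table of windows used here holds none for Gli1. The starts that RefSeq gives for Ptch1 and Gli3 lie inside the gene spans of GENCODE, so other starts of these genes were not searched.

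Library totals ran from 41881191 to 52993821 counts, and levels are given as CPM, the counts of a gene relative to its library total after TMM scaling. The cells expressed the epithelial markers Cldn3 (26362 to 34994 counts) and Hoxb13 (3129 to 5021), and 6 of 12 markers of prostate epithelium reached 10 counts in every library. Epcam, Cdh1, Tmprss2 and Pbsn had 0 to 10 counts, so several defining luminal markers were near 0. Of the 7 epithelial markers tested at 24 hours against time 0, 1 was called higher and 1 lower, with a median log2 fold change of 0.43. Of 10 fibroblast markers 6 had a row, with a sum of 13.7 to 15.1, 13.3 to 13.6 and 11.2 to 11.9 CPM at the 3 times, mostly Pdgfra (614 to 689 counts at time 0 and 350 to 464 at 24 hours). The other 2 tested fibroblast markers were called higher at 24 hours, Dcn at 9 to 29 counts against 7 to 11 and Postn at 74 to 82 against 41 to 64. The leukocyte and endothelial markers together never reached 1 CPM. The 3 libraries of 24 hours stood apart in their makeup. Mitochondrially encoded genes took 2.6% to 2.85% of the counts at 0 and 12 hours and 0.113% to 0.203% at 24 hours, and the TMM scaling factors were 1.04 to 1.07 and 0.898 to 0.911. The part of this shift in the results below was not tested.

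The ligands Ihh and Dhh had few counts in these cells, and the third mammalian Hedgehog ligand was not analysed here. Ihh (Indian hedgehog, chr1:74945315-74951672, minus strand, ENSMUSG00000006538) had 0, 0 and 1 counts at time 0, 2, 2 and 3 counts at 12 hours and 0, 2 and 0 counts at 24 hours. A floor of 3 counts corresponds to 0.0550 to 0.0735 CPM in these libraries, and every Ihh value was at or under it. Dhh (Desert hedgehog) had counts of 18 to 25, 7 to 21 and 11 to 19 at the 3 times. Its log2 fold change at 24 hours was -0.24 ± 0.39 (SE, n = 3 per time), with an adjusted p-value of 0.60 (edgeR), so no change of Dhh was detectable at this depth.

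Of the genes that make ligand active or carry it out of the cell, Hhat, the acyltransferase that attaches palmitate to Hedgehog proteins, had 671 to 784 counts at time 0 and 415 to 486 at 24 hours, a fall by 0.59 on the log2 scale (adjusted p = 4.4e-05, edgeR). The fall of Hhat lies at the 1.5-fold limit itself and was not called in 7 of the 19 alternative fits. Scube2, a secreted carrier of the lipid-bearing ligand, went from 41 to 62 counts to 21 to 31, or 1.74-fold lower (adjusted p = 0.019, edgeR), and lost its call in 4 alternative fits. Disp1, the transporter that releases the ligand, had 204 to 251 counts at time 0 and 142 to 191 at 24 hours, and its log2 fold change of -0.28 ± 0.12 did not pass the call. Scube1 had 12 to 16 counts at time 0 and 9 to 13 at 24 hours, and Scube3 2 to 5 and 0 to 1. Of the 5 tested genes of this list, 2 were thus called lower and 0 higher at 24 hours, where 16.8% and 12% of all tested genes were, and their median log2 fold change was -0.28 against -0.02 over all tested genes. That median was -0.03 with the length and GC correction, -0.50 with total counts and -0.53 without replicate 1 of 24 hours.

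Ptch1 encodes the receptor that Hedgehog ligands bind and that keeps SMO off (chr13:63508328-63573598, minus strand, ENSMUSG00000021466). It had 2990, 2667 and 2911 counts at time 0, 2436, 2421 and 2396 at 12 hours, and 1108, 1455 and 1382 at 24 hours. Scaled to library size, these were 62.0, 57.2 and 53.3 CPM, then 53.3, 52.0 and 54.8 CPM, then 27.2, 30.2 and 29.2 CPM. The time 0 and 12 hour libraries overlapped, and all 3 libraries of 24 hours lay far below both. The mean went from 57.5 ± 4.35 CPM (SD, n = 3) at time 0 to 53.4 ± 1.36 at 12 hours and 28.8 ± 1.54 at 24 hours. Ptch1 was 1.99-fold lower at 24 hours than at time 0 (log2 fold change -0.99 ± 0.06 SE, adjusted p = 1.4e-08, edgeR). Between time 0 and 12 hours the log2 fold change was -0.10 ± 0.05 (adjusted p = 0.23), and between 12 and 24 hours it was -0.87 ± 0.05 (adjusted p = 6.1e-09).

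Of the coreceptors described here, only Cdon, an immunoglobulin-family protein that presents ligand to PTCH1, was well expressed. Its counts of 5181 to 5976, 4721 to 5062 and 4369 to 6015 at the 3 times gave log2 fold changes of -0.07 ± 0.04 at 12 hours and 0.02 ± 0.06 at 24 hours (adjusted p = 0.30 and 0.74, edgeR). Boc, a relative of Cdon, had 0 to 2 counts in every library. Lrp2 had 3 to 4 counts at time 0 and 0 at 24 hours, and Gpc3, a proteoglycan that competes for ligand, had 4 to 9 and 1 to 7. The last 3 genes were too low to be tested.

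Smo encodes the membrane protein that carries the signal inward once PTCH1 lets go (chr6:29735503-29761365, plus strand, ENSMUSG00000001761). It had 7661, 7172 and 8830 counts at time 0, 6574, 6710 and 6564 at 12 hours, and 4470, 5883 and 5761 at 24 hours, or 158 ± 4.09, 146 ± 3.49 and 118 ± 7.11 CPM (SD, n = 3). The 3 times did not overlap on the CPM scale, and each later time was lower. The first step was small, with a log2 fold change of -0.11 ± 0.03 (adjusted p = 0.043, edgeR). That value lost the 0.05 level with the replicate number as a block (adjusted p = 0.062) and reached an adjusted p-value of 0.19 with single libraries left out. At 24 hours Smo was 1.34-fold lower than at time 0 (log2 fold change -0.42 ± 0.05, adjusted p = 3.5e-06), which is a fall past the 0.05 level but under the 1.5-fold limit of the call. Scaled by total counts, the same change was -0.65 and was called.

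Sufu, which encodes the cytoplasmic protein that binds and restrains GLI factors (chr19:46396896-46488804, plus strand, ENSMUSG00000025231), had the tightest replicates at time 0. Its 3 libraries at time 0 read 34.6, 34.1 and 34.3 CPM (1667, 1593 and 1871 counts), and those at 12 hours 34.2, 32.6 and 33.4 CPM (1563, 1517 and 1460 counts). At 24 hours they read 15.6, 18.3 and 15.8 CPM (635, 884 and 747 counts), all below the earlier libraries by a wide margin. Sufu was 2.07-fold lower at 24 hours than at time 0 (log2 fold change -1.05 ± 0.07, adjusted p = 1.6e-08, edgeR). At 12 hours its log2 fold change was -0.04 ± 0.04 (adjusted p = 0.69).

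Kif7 encodes a kinesin of the cilium tip that acts on GLI processing in both directions (chr7:79698098-79715720, minus strand, ENSMUSG00000050382). Its counts were far lower, with 149, 170 and 213 at time 0, 168, 149 and 140 at 12 hours, and 78, 82 and 80 at 24 hours. The mean level was 3.55 ± 0.415, 3.36 ± 0.272 and 1.77 ± 0.125 CPM (SD, n = 3), again with no overlap between 24 hours and the earlier times. Kif7 was 2.01-fold lower at 24 hours than at time 0 (log2 fold change -1.01 ± 0.16, adjusted p = 6.7e-05, edgeR). In the annotation, its exons overlap genes on the other strand by up to 877 bases, and whether the counting used strand is not given in the sources used here, so reads from these bases cannot be assigned to Kif7 with certainty.

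The GLI factors were represented mainly by Gli3. Gli3, which gives the main repressor of the pathway (chr13:15463235-15730026, plus strand, ENSMUSG00000021318), had 1936, 1890 and 2134 counts at time 0, 1775, 1763 and 1638 at 12 hours, and 942, 1027 and 1064 at 24 hours. These were 39.9 ± 0.733, 38.0 ± 0.699 and 22.3 ± 0.910 CPM (SD, n = 3). Neither later time overlapped with time 0, but at 12 hours the difference was 1.05-fold and not past the test (log2 fold change -0.07 ± 0.04, adjusted p = 0.41, edgeR). At 24 hours Gli3 was 1.79-fold lower than at time 0 (log2 fold change -0.84 ± 0.05, adjusted p = 1.6e-08). This was the smallest of the 5 called falls.

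Gli1, the activator whose mRNA follows pathway output in most tissues (chr10:127329882-127341974, minus strand, ENSMUSG00000025407), was present at low counts. It had 95, 138 and 115 counts at time 0, 111, 65 and 70 at 12 hours, and 58, 41 and 32 at 24 hours. In CPM these were 1.97, 2.96 and 2.11, then 2.43, 1.40 and 1.60, then 1.42, 0.850 and 0.676. Relative to its mean, Gli1 had the widest replicate spread of the 6 tested members, and the libraries of 12 hours overlapped with both other times. At 24 hours all 3 libraries lay below all 3 of time 0, a 2.41-fold fall (log2 fold change -1.27 ± 0.27, adjusted p = 9.4e-04, edgeR). The change between time 0 and 12 hours was -0.37 ± 0.21 (adjusted p = 0.36), with -0.64 without replicate 1 of 12 hours, -0.21 without replicate 2 of 12 hours and -0.17 without replicate 2 of time 0. Between 12 and 24 hours it was -0.88 ± 0.30 (adjusted p = 0.018), but the groups overlapped, and the call was lost without replicate 1 of 12 hours (-0.61, adjusted p = 0.12) or without replicate 3 of 24 hours (-0.67, adjusted p = 0.082). Exons of Gli1 overlap genes on the other strand by up to 265 bases and those of Gli3 by 188 bases, with the same limit as for Kif7.

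Gli2, which encodes the main activator that responds to ligand in many tissues (chr1:118834132-119053619, minus strand, ENSMUSG00000048402), had 0 counts in 8 of 9 libraries and 3 counts in replicate 3 of 24 hours. A count of 0 allows up to 3 counts, or 0.0550 to 0.0686 CPM in the 6 libraries of 0 and 12 hours, against 37.4 to 40.5 CPM for Gli3 in the same libraries. These floors cover counting error only. Neither Gli2 nor Ihh passed the filter on low counts, and no fold is given for them.

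**Figure D1:**
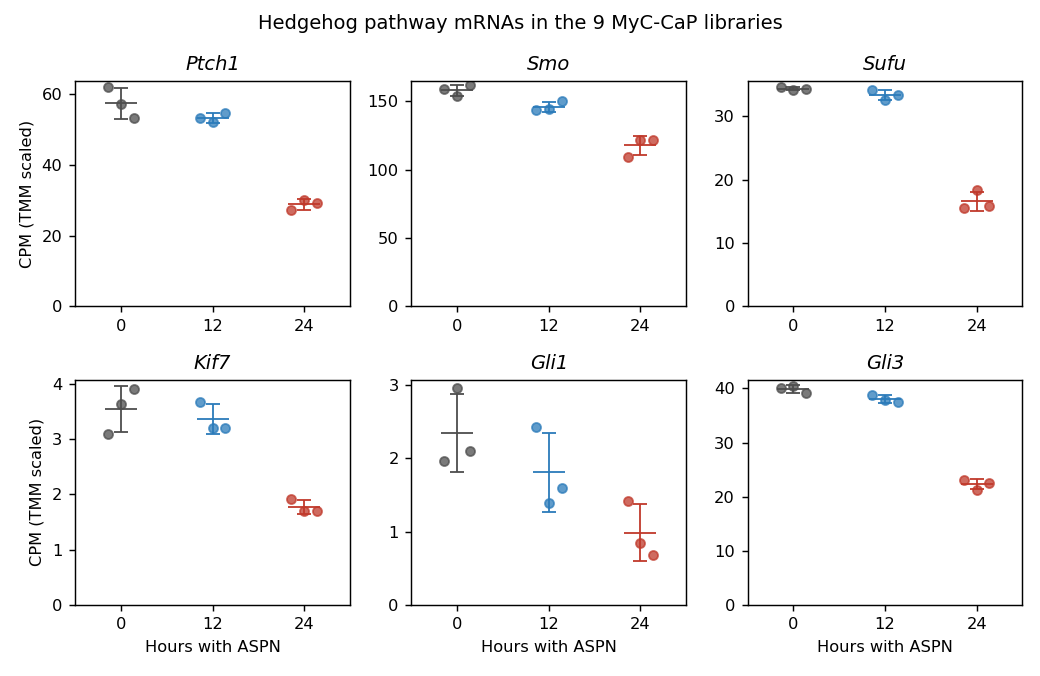
Levels of the 6 tested Hedgehog members in TMM-scaled CPM (y axis, from 0) against hours with ASPN (x axis). Points are libraries, horizontal bars are means and whiskers are the SD of 3 libraries. All 3 points of 24 hours lie below all points of time 0 in every panel, while the points of 12 hours lie near those of time 0. For Gli1 the points of 12 hours overlap with both other times.

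Counted over the table, 5 of the 6 tested members were called lower at 24 hours against time 0, where 16.8% of the 11444 tested genes were called lower. All 6 passed the adjusted 0.05 level with a lower value, as did 36.5% of the tested genes, and all 6 had 3 libraries below the other 3, as did 38% of them. The median log2 fold change of the 6 was -1.0, against -0.02 over all tested genes. Ranked by log2 fold change from the lowest, Gli1 stood at percentile 4.34, Sufu at 6.72, Kif7 at 7.46, Ptch1 at 7.70, Gli3 at 10.4 and Smo at 24.9 of the tested genes. None of these 6 had fewer than 32 counts in a library, and Gli2, Ihh and Hhip have no place in these counts.

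At 12 hours against time 0, 0 of the 6 members were called lower, where 0.0964% of 11410 tested genes were. By the adjusted p-value alone, 1 member (Smo) was lower, where 3.47% of tested genes were, and 2 members (Smo and Gli3) had 3 libraries below the other 3, where 13.4% of tested genes did. Without the adjustment, Smo was also the single member with a p-value under 0.05 in the edgeR test (0.0042), with Ptch1 next at 0.0501. All 6 log2 fold changes were below 0, between -0.37 and -0.04.

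At 24 hours against 12 hours, 5 of 6 members were again called lower, where 15.3% of 11394 tested genes were. With the length and GC correction 3 were, Gli1 (-0.66) and Gli3 (-0.53) losing their call, where 1479 of all tested genes were. With the replicate block added to this correction 4 were, Gli1 among them (-0.65, adjusted p = 0.024). In the reported fit all 6 were lower at the adjusted 0.05 level, where 35.6% of tested genes were. Of the 6, 5 had 3 libraries below the other 3, Gli1 being the exception, where 38.1% of tested genes did. Sufu fell 1.99-fold, Kif7 1.88-fold, Gli1 1.84-fold, Ptch1 1.82-fold and Gli3 1.69-fold, while Smo fell 1.22-fold. This comparison shares its 24 hour libraries with the comparison against time 0, and the comparisons at 12 and 24 hours share the time 0 libraries, so the values stand side by side and are not independent.

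**Figure D2:**
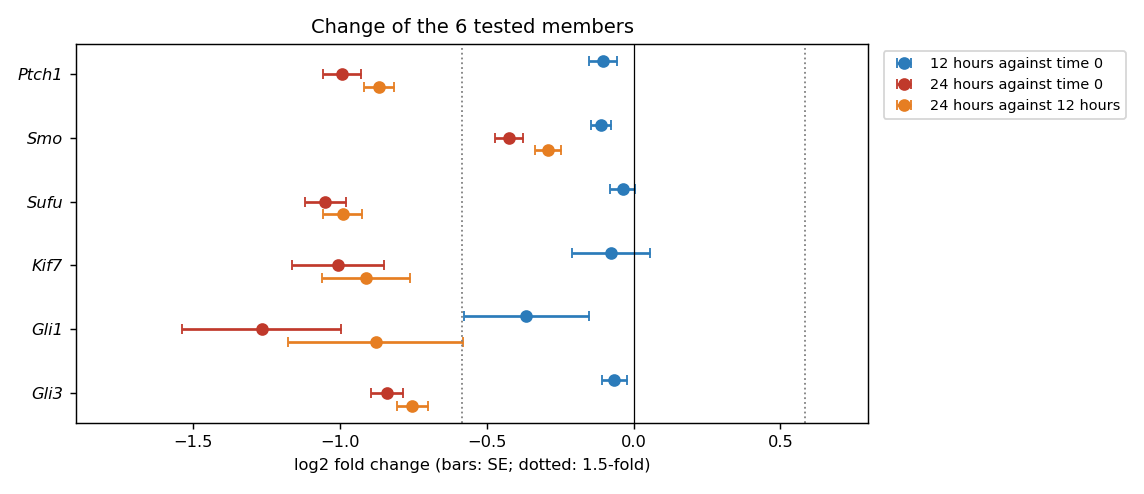
Log2 fold changes (x axis) of the 6 tested members in the 3 comparisons, with bars of 1 SE and dotted lines at a 1.5-fold change. The points of 12 hours against time 0 lie between -0.37 and -0.04, and those of both comparisons with 24 hours lie left of the dotted line except for Smo. The comparisons share libraries.

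Because the 24 hour libraries were made up differently, the members were also set against Smo within each library, which needs no scaling factor. Smo is itself a member and fell least of the tested members in the reported fit. Lower ratios for the others thus follow from those fold changes and are no separate support. Whether the changed makeup acted on single genes was not tested by these ratios. At time 0 there were 36.4 ± 3.11 Ptch1 counts, 25.3 ± 1.09 Gli3 counts and 21.7 ± 0.512 Sufu counts per 100 Smo counts (SD, n = 3). At 24 hours there were 24.5 ± 0.446, 19.0 ± 1.87 and 14.1 ± 1.04. For all 3 genes, each library of 24 hours had a lower ratio than each library of time 0, so these mRNAs fell by more than Smo in the same libraries. A larger fall than that of Smo was common, since Smo stood at percentile 24.9 of the tested genes, ranked by log2 fold change from the lowest. How many of all tested genes had a ratio to Smo without overlap was not counted. Kif7 went from 2.24 ± 0.259 to 1.51 ± 0.204 per 100 Smo counts, also without overlap. Gli1 went from 1.49 ± 0.378 to 0.850 ± 0.394, and here replicate 1 of 24 hours (1.30) reached the range of time 0 (1.24 to 1.92). At 12 hours the ratios of Ptch1 (36.5 ± 0.489), Gli3 (26.1 ± 1.04) and Kif7 (2.30 ± 0.223) overlapped with those of time 0. The ratio of Sufu at 12 hours was 22.9 ± 0.801, a log2 difference of 0.07 with no overlap.

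In the 2-sided exact permutation test on these log2 ratios, 24 hours against time 0 gave p = 0.1 for Ptch1, Sufu, Gli3 and Kif7, which is the smallest value that 3 libraries against 3 can give. With 15 such comparisons the Benjamini-Hochberg adjusted value was 0.17, and Gli1 had p = 0.2 (adjusted 0.30), all by the exact permutation test. This test cannot reach 0.05 for a single ratio with 3 libraries against 3. The log2 differences were -0.57 for Ptch1, -0.63 for Sufu, -0.41 for Gli3, -0.57 for Kif7 and -0.88 for Gli1.

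**Figure D3:**
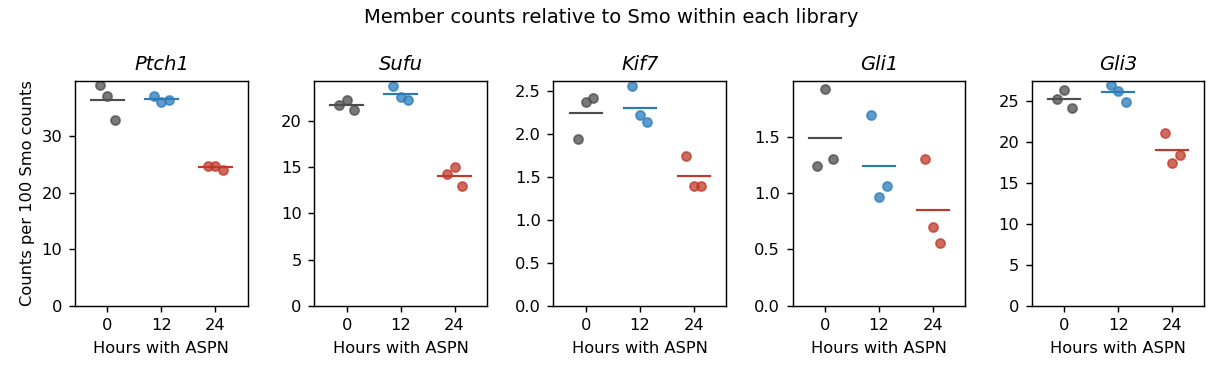
Counts of 5 members per 100 Smo counts of the same library (y axis, from 0) against hours with ASPN (x axis), with points for libraries and bars for the means of 3. The points of 24 hours lie below those of time 0 for Ptch1, Sufu, Kif7 and Gli3, and 1 of the 3 overlaps for Gli1.

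To order the members by level, CPM was divided by the exon length of each gene in kilobases. At time 0 Smo stood at 28.1 ± 0.728 CPM per kilobase (SD, n = 3), followed by Sufu at 4.46 ± 0.0292, Gli3 at 4.16 ± 0.0765, Ptch1 at 4.05 ± 0.307, Kif7 at 0.774 ± 0.0905 and Gli1 at 0.469 ± 0.107. The libraries of Gli3 and Ptch1 overlapped, so these neighbours did not differ beyond their spread, while the other steps of the order did not overlap. At 24 hours the same scale gave Smo 21.0 ± 1.27, Gli3 2.32 ± 0.0949, Sufu 2.15 ± 0.200, Ptch1 2.03 ± 0.109, Kif7 0.386 ± 0.0273 and Gli1 0.197 ± 0.0781. Gli3, Sufu and Ptch1 each overlapped with their neighbour there. The order within this trio also depends on the length used: with the longest transcript of each gene, time 0 gave 7.59 ± 0.0496 for Sufu, 5.54 ± 0.419 for Ptch1 and 4.89 ± 0.0898 for Gli3.

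Of the proteins that work with SMO or help GLI factors, 3 of 7 tested genes were called lower at 24 hours against time 0 and 0 higher (16.8% and 12% of all tested genes), and the median log2 fold change was -0.30, or -0.52 with total counts. Ulk3, a kinase that can phosphorylate GLI proteins, had 584 to 818, 670 to 768 and 270 to 348 counts at the 3 times, a 2.17-fold fall (adjusted p = 2.4e-06, edgeR). Iqce, a part of the complex that anchors EVC proteins at the base of the cilium, had 1151 to 1286, 969 to 1020 and 536 to 604 counts and fell 1.96-fold (adjusted p = 4.6e-08). Both falls kept their call in all alternative fits at 24 hours against time 0. Arrb1, a beta-arrestin that binds SMO among many other receptors, had 17458 to 20101, 16408 to 17973 and 9107 to 11414 counts and fell 1.69-fold (adjusted p = 4.9e-08). After the correction for length and GC content the change of Arrb1 was -0.43 on the log2 scale and no longer called.

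Arrb2, the other beta-arrestin, did not pass the 1.5-fold limit. Its counts were 482 to 535, 434 to 467 and 618 to 659 at the 3 times, with a log2 fold change of 0.45 ± 0.10 (adjusted p = 0.0011, edgeR), the opposite sign to Arrb1. Grk2, a kinase that phosphorylates SMO, had 3043 to 3677, 2706 to 3046 and 2132 to 2709 counts (log2 fold change -0.30 ± 0.05 at 24 hours). Efcab7, a partner of Iqce, had 158 to 199, 171 to 198 and 167 to 184 counts, and Stk36, a kinase related to the fly gene fused, had 33 to 41, 30 to 39 and 21 to 44. No change of Efcab7 or Stk36 was detectable.

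Of the 18 tested genes that restrain SMO or GLI factors, 2 were called lower and 0 higher at 24 hours, where 16.8% and 12% of all tested genes were, and the median log2 fold change was 0.01. Rab23, a small GTPase that limits pathway output, had 651 to 719 counts at time 0 and 302 to 430 at 24 hours, a 1.66-fold fall (adjusted p = 2.3e-05, edgeR). Mosmo, which lowers the amount of SMO at the cell surface, had 1006 to 1186 and 532 to 650 counts and fell 1.65-fold (adjusted p = 9.7e-07). The other 16, among them the protein kinase A and casein kinase subunits, were not called. With total counts 5 of the 18 were called lower, where 3008 of 11444 tested genes were, and the length and GC correction added 1 called higher, where 1350 tested genes were. Rab23 and Mosmo lost their call under glmTreat, which tests against a 1.5-fold change itself, so none of the 18 was called there. In that fit 841 of all tested genes were called higher and 1260 lower.

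Most cilium genes were not called. Of 43 tested genes for intraflagellar transport, ciliary motors and the transition zone, 7 were called higher at 24 hours against time 0 (16.3%, where 12% of all tested genes were called higher), 5 lower (11.6%, where 16.8% of all tested genes were) and 31 not, with a median of 0.07. Cep290, a transition zone protein, went from 645 to 749 counts to 1430 to 1485, and was 2.33-fold higher (log2 fold change 1.22 ± 0.07, adjusted p = 8.4e-09, edgeR). Arl13b, a small GTPase of the ciliary membrane, went from 824 to 907 counts to 1512 to 1799 (log2 fold change 1.09 ± 0.06, adjusted p = 2.8e-09). Hspb11 and Ofd1 rose by 0.82 and 0.80 on the log2 scale. Hspb11 lost its call with the length and GC correction (0.54 at its lowest), and Ofd1 with total counts (0.58). In the other direction Traf3ip1, an intraflagellar transport subunit, went from 1123 to 1347 counts to 486 to 590, a 2.06-fold fall (adjusted p = 1.3e-08). Bbs1, Kifap3 and Ift140 fell by 0.88, 0.64 and 0.63. All 3 lost their call under glmTreat, which tests against a 1.5-fold change itself, and Ift140 in 5 of the 19 alternatives, among them the length and GC correction (-0.35) and without replicate 1 of time 0 or of 24 hours. The split depends on the scaling, with 3 higher and 9 lower when the libraries were scaled by total counts, where 698 and 3008 of all 11444 tested genes were called and the list's median was -0.15 and that of all tested genes -0.24.

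Of 18 listed genes that GLI factors induce in other tissues, the members themselves left out, 8 were tested, and 1 was called higher and 2 lower at 24 hours (12% and 16.8% of all tested genes), with a median of -0.26. This split was 2 and 1 with the length and GC correction, 0 and 3 with total counts and 1 and 1 with upper-quartile factors, where 1350 and 1602, 698 and 3008, and 1510 and 1802 of all 11444 tested genes were called. The median was -0.13 with the length and GC correction and -0.48 with total counts. Foxf2, a forkhead factor of mesenchyme, had 1791 to 2326, 1484 to 1679 and 869 to 1085 counts at the 3 times and was 1.84-fold lower at 24 hours (adjusted p = 2.0e-08, edgeR). Ccnd1, the G1 cyclin, had 10884 to 13001 counts at time 0 and 5777 to 7919 at 24 hours, a 1.53-fold fall that was not called in 5 of the 19 alternative fits. Rab34, a small GTPase needed for cilium formation, rose from 5743 to 6729 counts to 8171 to 9211 (log2 fold change 0.66 ± 0.04, adjusted p = 7.4e-09), a call that was lost with total counts (0.43) and under glmTreat. Sox9, a transcription factor of epithelial progenitors, passed the call only between 12 and 24 hours, when it fell by 0.63, and lost that call in 4 alternatives, namely glmTreat, both length and GC corrections and without replicate 1 of 24 hours. It had 11827 to 13870, 15573 to 15776 and 8061 to 11469 counts, so its level was highest at 12 hours. The remaining 5 (Bcl2, Foxm1, Jag2, Cdk6 and, against time 0, Sox9) lay between -0.56 and 0.40 at 24 hours and were not called.

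At 12 hours against time 0 none of the tested genes in these 6 lists was called in either direction, where 1.5% of all tested genes were called higher and 0.0964% lower. By the adjusted p-value alone, 3 of the 8 tested target genes were higher and 1 lower. By the same rule 2 restraining genes and 1 cilium gene were higher, where 782 of 11410 tested genes were higher and 396 lower. Between 12 and 24 hours, of the cilium genes 6 were called higher, where 10.4% of all tested genes were, and 3 lower, and 3 activating genes, 2 restraining genes and 3 target genes were called lower, where 15.3% of all tested genes were, with Rab34 the 1 target called higher. None of the ligand genes was called between 12 and 24 hours in the reported fit, and 1 was called lower with total counts, with the adjusted p-value alone and without replicate 2 of 12 hours. With the length and GC correction 1 activating gene was called lower in this comparison, and the target genes split into 2 higher and 1 lower. In that fit 1051 of all 11394 tested genes were called higher and 1479 lower. With total counts 5 restraining genes were called lower, and the cilium genes split into 3 higher and 7 lower, where 484 and 2830 of all 11394 tested genes were called.

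**Figure D4:**
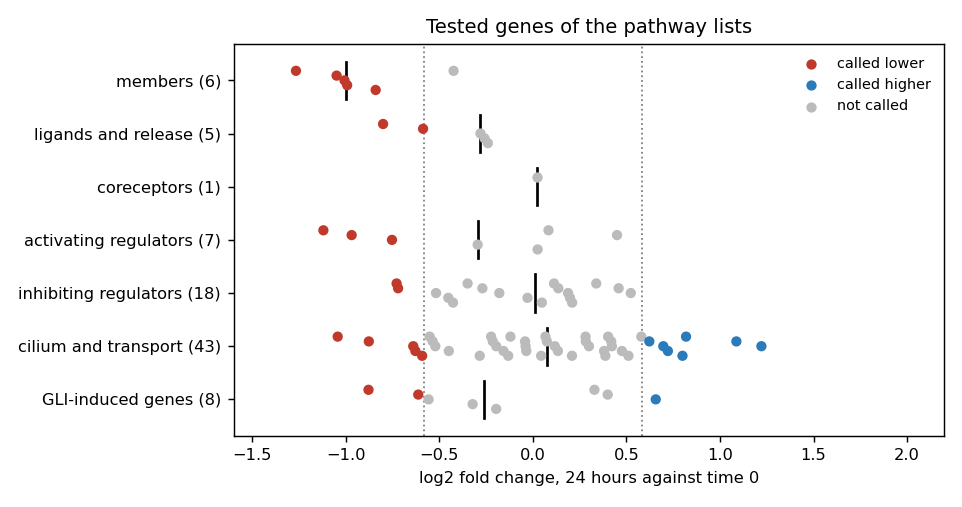
Log2 fold changes at 24 hours against time 0 (x axis) for the tested genes of each list (y axis, with the number tested), with black bars at the list medians and dotted lines at a 1.5-fold change. Red points were called lower, blue higher and grey not called. The member list has its median at -1.0, and the cilium list holds 7 blue and 5 red points around a median of 0.07, which was -0.15 with total counts.

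Over the whole table, genes rich in GC and genes with long exons fell more often at 24 hours. Over 4 equal groups of increasing transcript GC content the share called lower was 10.1%, 15.4%, 19.3% and 22.4%, and over those of exon length it was 11.4%, 16.1%, 20.1% and 19.7%. Kif7, Gli1, Smo and Sufu stood at GC percentiles 95, 93.7, 89.6 and 80.7 of the tested genes, but Gli3 and Ptch1 at 42.8 and 39.2. Ptch1, Gli3 and Sufu were long, at exon length percentiles 96.9, 89.0 and 80.6. With length and GC content fitted out in each library, the log2 fold changes at 24 hours against time 0 were -1.02 for Gli1, -0.80 for Sufu, -0.78 for Ptch1, -0.73 for Kif7, -0.61 for Gli3 and -0.21 for Smo. All became smaller, and the first 5 were still called.

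**Figure D5:**
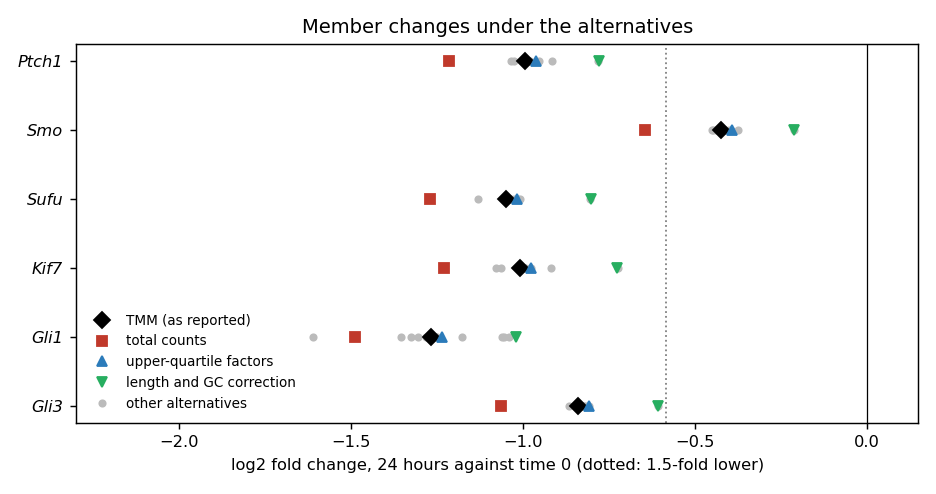
Log2 fold changes at 24 hours against time 0 (x axis) of the 6 tested members under the reported TMM scaling (diamond), total counts (square), upper-quartile factors (triangle up), the length and GC correction (triangle down) and the other alternatives (grey). The dotted line marks a 1.5-fold fall. All marks lie below 0, and for every member but Smo all lie left of the dotted line, with Gli3 closest to it at -0.61.

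The genes whose levels followed Ptch1 most closely over the 9 libraries were Cdk18 (Pearson r = 0.998 of log2 CPM), Rapgef2 (0.997) and Man2a1 (0.997), out of 10400 genes with a mean of at least 1 CPM. Such likeness was common, since 1822 genes had r above 0.95 with Ptch1, and all of these share the step between 12 and 24 hours in the same libraries. Cdk18 had mean levels of 68.6, 66.0 and 46.4 CPM at the 3 times, and Rapgef2 35.3, 33.7 and 15.9 CPM. The profile of Gli1, with its wider replicate spread, had few close neighbours. The nearest were Hace1 (0.959), Surf2 (0.958) and Cstf3 (0.953), and 5 genes had r above 0.95. These correlations describe 9 libraries that share their depth and scaling, and carry no test.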

How the data were processed

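RNA from 9 MyC-CaP cultures was sequenced as paired-end reads of 150 bases. Per the study's methods, the authors trimmed adapters with cutadapt, aligned to GRCm38.p6 with STAR and GENCODE, and counted reads per gene with featureCounts. The deposited values are raw read counts of protein-coding genes with at least 1 count, and the strand and multi-mapping settings are not given in the sources used here. Floors cover counting error only, while the SE and the p-values also hold the spread between replicates.

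Samples were grouped by the time in their titles. Each comparison was fitted on its 6 libraries over all genes with edgeR 4.0.16 in R 4.3.3 (filterByExpr, TMM, quasi-likelihood test), with Benjamini-Hochberg adjustment over all tested genes, and the SE was taken as the log2 fold change divided by the square root of F. A call needed an adjusted p-value no higher than 0.05 and a 1.5-fold change or more. Levels are CPM with TMM factors over all 9 libraries, and lengths come from GENCODE exons on GRCm38. Of 15384 genes, 15374 were found there by identifier. Promoters come from RefSeq. Alternatives were DESeq2 1.42.0, limma-voom 3.58.1, other scalings and filters, glmTreat and the adjusted p-value alone. Further ones were a replicate block, a loess correction (span 0.3) for length and GC content, and each library left out. The fits were also run on simulated counts with the same dispersion for every gene and as many genes raised as lowered. The data differ from these settings, so the simulation does not show how well the fits work on them.

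The members and lists were chosen with earlier results of these data known. Named genes were all members, the called genes of the other lists (the 4 with the largest change in a direction where more were called), the genes with a row in the ligand, coreceptor and activating lists, and the 3 genes most like Ptch1 and Gli1 (log2 CPM with a prior count of 2). Bcl2, Foxm1, Jag2 and Cdk6 were named after their values were seen. Each pair of replicates differed by more than sampling noise, with a chi-square of at least 3.41 per degree of freedom. Some genes of the coreceptor and marker lists are not reported here.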

Additional observations from a re-analysis of the deposited data

How the results depend on the processing

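At 24 hours against time 0, 5 members were called lower in the reported fit, 5 to 6 under 13 alternatives and 5 with each library left out. All 6 were called with total counts, where 3008 of 11444 tested genes were called lower against 1924 in the reported fit, and with the adjusted p-value alone, where 4181 were. Log2 fold changes over the 13 alternatives ran from -1.49 to -1.02 for Gli1, -1.27 to -0.80 for Sufu, -1.23 to -0.72 for Kif7, -1.21 to -0.78 for Ptch1, -1.06 to -0.61 for Gli3 and -0.65 to -0.21 for Smo. The length and GC correction, with or without the block, gave the smaller end and total counts the larger end, and total counts also moved the median of all tested genes to -0.24. At 12 hours against time 0 the count went from 0 to 1 (Smo) with the adjusted p-value alone and stayed at 0 with each library left out. The log2 fold change of Kif7 at 12 hours, -0.08, ran from -0.16 to 0.00081 with each library left out, and the change of sign came without replicate 3 of time 0. Between 12 and 24 hours the count of 5 went to 3 with the length and GC correction, where Gli1 (-0.66, edgeR adjusted p = 0.061) and Gli3 (-0.53) lost their call. It was 4 to 5 with each library left out, and Gli1 also lost its call under glmTreat at 1.5-fold (adjusted p = 0.31). Why these values moved was not tested beyond what each alternative changes by its construction.

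Libraries with the same replicate number did not deviate together, with mean correlations of -0.01, -0.06 and 0.02 in the 3 comparisons. Libraries with unlike numbers were not compared in this way, so the check cannot exclude that the numbers pair the samples. With the replicate number as a block, 5 members were called at 24 hours against time 0, 5 between 12 and 24 hours and 0 at 12 hours. Depth limits Gli1, Kif7 and the genes with fewer than 100 counts most, and Gli2 and Ihh were too low for a test. A library left alone with 1 partner was assumed to vary like the other group.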
